A study of Mus musculus with 12 samples.

Results

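The proteasome genes of the mouse brain were examined in sham mice and in ischemic mice that had received vehicle or lactate. Members were all rows with a mouse Ensembl identifier and a symbol that starts with Psma, Psmb, Psmc, Psmd, Psme, Psmf or Psmg and a digit, with pseudogene symbols left out. This rule gave 50 of the 31208 genes in the table. They comprise 31 constitutive subunits of the 20S core and the 19S cap, the 5 inducible genes Psmb8, Psmb9, Psmb10, Psme1 and Psme2, 10 other regulators and assembly chaperones, 2 subunits restricted to other tissues (Psma8 and Psmb11), and Psmc3ip and Psme2b, which carry a matching symbol but were not counted as subunits. The study asked how lactate given before a stroke changes the brain transcriptome.

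All 12 mice were C57BL/6, 8 weeks old, and each library came from the brain of 1 mouse. Sham mice (n = 4) had no ischemia, and the sources used here do not say whether they received an injection. Vehicle mice (n = 4) received 2 μL of sterile saline into a cerebral ventricle (i.c.v.) 24 h before occlusion of the left middle cerebral artery (MCAO). Lactate mice (n = 4) received 2 μL of lactate at 100 mmol/L in the same way, named as D-lactate in the methods and as lactate without its form in the labels. Ischemic brains were taken 6 h after ischemia. Lactate was therefore tested only together with ischemia, and in whole tissue fewer cells of a type and less RNA per cell cannot be told apart. Since it is not known whether sham mice were injected, ischemia and injection cannot be told apart in comparisons with them. Library totals ranged from 6815920 to 10677224 counts, so that 3 counts, taken as the floor of detection, correspond to 0.281 to 0.440 CPM, the count of a gene scaled to a fixed library total. Proteasome genes took 0.571% to 0.717% of the counts, with the lowest share in Vehicle mouse 1. This library also stood apart on the second principal component of all genes (-69.2, against -9.51 to 19.03 in the other libraries), so the counts of members, and the values given below that moved by over 1.5 times and by over 0.1 on the log2 scale, are also given without it. Leaving it out moved the log2 fold changes of the members against sham by a median of 0.08 and by at most 0.17, and those of lactate against vehicle by a median of 0.07 and by at most 0.16. Markers of neurons, astrocytes and oligodendrocytes were present in every library, with sums of at least 592 CPM (calls among them are given with the other marker genes).

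The proteasome degrades proteins that have been tagged with ubiquitin. Its 20S core is a barrel of alpha rings, which gate the entry, around beta rings, which hold the catalytic sites, and the 19S cap recognises, unfolds and feeds in substrates with its ATPases (Psmc) and non-ATPase subunits (Psmd). Interferons and other inflammatory signals are known to induce Psmb8, Psmb9 and Psmb10, which take the places of the catalytic subunits Psmb5, Psmb6 and Psmb7 in newly built particles, the immunoproteasome. Psme1 and Psme2, also inducible, form the PA28 cap. In the brain these inducible genes are known mainly from microglia, endothelium and infiltrating leukocytes.

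Promoter windows of inducible genes and of their constitutive counterparts are shown, since the text compares both groups of genes. Psmb8 (chr17:34197721-34201454, plus strand) and Psmb9 (chr17:34181987-34187764, minus strand) are neighbours, as are Psme1 (chr14:55578123-55581529, plus strand) and Psme2 (chr14:55587441-55591113, minus strand), while Psmb10 (chr8:105935735-105938444, minus strand) lies alone (GRCm38, GENCODE release M21). RefSeq windows on GRCm38.p6, from 250 bases before to 50 bases after the start site that RefSeq gives each gene, were found for 42 of the 50 members. Psma8, Psmb1, Psmb2, Psmb7, Psmc3, Psmd3, Psmd7 and Psmg2 had no entry. Capitals mark matches to a motif searched on both strands. The windows lie at chr14:54617946-54618245 (Psmb5, minus strand), chr11:70525107-70525406 (Psmb6, plus strand), chr17:34197945-34198244 (Psmb8, plus strand), chr17:34187281-34187580 (Psmb9, minus strand) and chr14:55578244-55578543 (Psme1, plus strand). The RefSeq start sites in these windows are at 54617995, 70525357, 34198195, 34187330 and 55578494 in the same order. The GENCODE genes of Psmb8, Psmb9 and Psme1 include transcripts that start further upstream, so these 3 windows lie inside the gene bounds given above.
Psmb5: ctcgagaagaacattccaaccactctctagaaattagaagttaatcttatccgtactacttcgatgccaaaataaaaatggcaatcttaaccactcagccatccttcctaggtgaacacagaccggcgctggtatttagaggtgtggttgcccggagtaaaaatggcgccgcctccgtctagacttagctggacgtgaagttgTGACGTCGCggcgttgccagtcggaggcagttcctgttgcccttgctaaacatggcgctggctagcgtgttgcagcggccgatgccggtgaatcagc
Psmb6: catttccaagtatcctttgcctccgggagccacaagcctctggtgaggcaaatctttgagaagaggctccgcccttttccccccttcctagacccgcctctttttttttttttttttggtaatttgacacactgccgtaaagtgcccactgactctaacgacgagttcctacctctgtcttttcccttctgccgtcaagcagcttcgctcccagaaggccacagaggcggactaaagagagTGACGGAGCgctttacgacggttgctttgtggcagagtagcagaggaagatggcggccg
Psmb8: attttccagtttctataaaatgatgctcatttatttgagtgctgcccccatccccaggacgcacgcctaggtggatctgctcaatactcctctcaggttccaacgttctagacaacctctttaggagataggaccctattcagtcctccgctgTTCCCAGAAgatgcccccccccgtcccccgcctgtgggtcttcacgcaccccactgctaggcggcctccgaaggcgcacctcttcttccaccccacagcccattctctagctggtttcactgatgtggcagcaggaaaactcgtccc
Psmb9: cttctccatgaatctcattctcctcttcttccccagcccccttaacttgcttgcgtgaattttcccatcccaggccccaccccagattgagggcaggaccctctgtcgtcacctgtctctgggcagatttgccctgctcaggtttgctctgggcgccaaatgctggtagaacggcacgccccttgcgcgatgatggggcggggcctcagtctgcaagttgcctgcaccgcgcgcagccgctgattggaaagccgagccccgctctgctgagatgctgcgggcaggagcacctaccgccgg
Psme1: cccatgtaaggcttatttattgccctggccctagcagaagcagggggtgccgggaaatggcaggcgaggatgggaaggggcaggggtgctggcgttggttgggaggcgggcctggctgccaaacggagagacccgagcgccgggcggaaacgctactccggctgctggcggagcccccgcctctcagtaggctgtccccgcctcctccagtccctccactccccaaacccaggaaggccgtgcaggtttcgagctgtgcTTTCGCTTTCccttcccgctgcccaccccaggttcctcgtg

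The motif TGACNNNGC, the core of an antioxidant response element of the kind bound by Nfe2l1 with small Maf proteins, was found in Psmb5 and Psmb6. It was also found in Psmc6, Psmd12, Psmd9 and Psme4, so in 6 of 42 members, against 12.4% of all 32851 windows. TTCNNNGAA, the core of a gamma-activated site, was found in Psmb8, Psmd2 and Psmg1, so in 3 of 42 members, against 8.3% of all windows. The interferon-stimulated response element bound by Irf proteins, searched as GAAA, any 2 bases and GAAA, was found in Psme1, Psmb3, Psmd4, Psmd9 and Psmg4, so in 5 of 42 members, against 3.44% of all windows. Psmb9, Psmb10 and Psme2 held none of these 3 motifs in their windows, and no matches overlapped in any member. These matches describe letters in a window and not occupied sites.

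The constitutive machinery was abundant and the inducible genes spanned a wide range. Levels of different genes are compared here as CPM per kilobase of the principal transcript, averaged over the 12 mice. Since a full-length read stands for a transcript whatever its length, the same levels as CPM without this division are given after them. The constitutive catalytic subunits lay close together, at 192 ± 11.5 for Psmb6, 190 ± 14.9 for Psmb5 and 136 ± 18.2 for Psmb7 (mean ± SD, n = 12). Psmb10 reached 56.1 ± 5.60 and Psme1, the PA28 alpha subunit, 52.2 ± 4.37, whereas Psme2, the PA28 beta subunit, was at 10.2 ± 1.35. Psmb8 and Psmb9 were far lower, at 2.04 ± 0.617 and 0.863 ± 0.503, ranks 45 and 48 of the 50 members. The highest member was Psmc5, a 19S ATPase, at 808 ± 129, followed by Psma4, an alpha-ring subunit, at 382 ± 64.6. Subunits of which each particle holds the same number of copies differed in level by 6.20-fold within the alpha ring (Psma4 to Psma1), by 16.5-fold among 19S ATPases (Psmc5 to Psmc6), and by 1.41-fold among the constitutive catalytic subunits. Psma8, the testis form of an alpha subunit, ranged from 0 to 0.811 CPM and Psmb11, the catalytic subunit of thymic epithelium, from 0 to 0.272 CPM. Without division by length the catalytic subunits stood in another order, at 171 ± 13.4 CPM for Psmb5, 158 ± 21.1 CPM for Psmb7 and 153 ± 9.15 CPM for Psmb6, and Psma3 (554 ± 65.1 CPM) came second, before Psma4 (445 ± 75.3 CPM). On this scale the span was 7.50-fold within the alpha ring (Psma3 to Psma1), 9.98-fold among 19S ATPases (Psmc5 to Psmc4) and 1.11-fold among the constitutive catalytic subunits. Psmc5 as the highest member and the ranks of Psmb8 and Psmb9 were the same on both scales. Psma8 and Psmb11 did not pass the filter on low counts in any comparison, and without the filter their adjusted p-values in edgeR were at least 0.510.

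**Figure D1:**
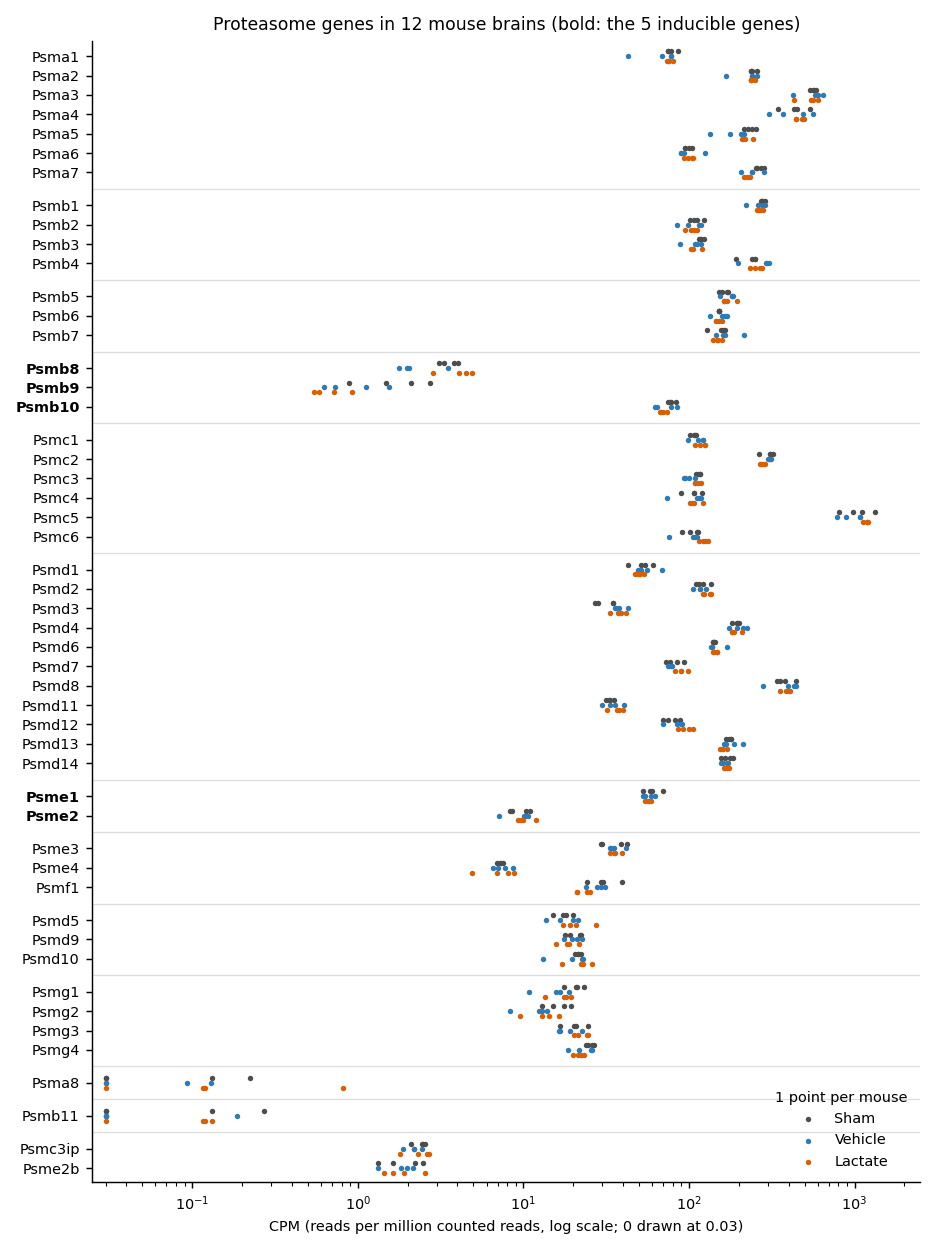
CPM (log scale) of the 50 proteasome genes, 1 point per mouse, by group (grey sham, blue vehicle, orange lactate) and ordered by role, with values of 0 drawn at 0.03. Points of the 3 groups lie on top of each other for most members, Psmb8 and Psmb9 lie far below Psmb10, and Psma8 and Psmb11 are near 0.

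Over the whole machinery the groups overlapped. The summed level of the 31 constitutive subunits was 6117 to 6649 CPM in sham mice, 5378 to 6819.6 CPM in vehicle mice and 6365 to 6605 CPM in lactate mice. Vehicle mouse 1 had the lowest value of all 12 mice for 18 of these 31 subunits. The summed level of the 5 inducible genes was 145 to 168 CPM, 129.6 to 159 CPM and 138 to 145 CPM, in the same order.

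No proteasome gene passed the test in any comparison. In the quasi-likelihood test of edgeR, with p-values adjusted by Benjamini-Hochberg across every gene in the fit and a call at an adjusted p under 0.05, 0 of 48 members tested were called between vehicle and sham mice, against 1.47% of all genes. Between lactate and sham mice 0 of 47 were called, against 12.3% of all genes, and between lactate and vehicle mice 0 of 47, against 0.00574%. The edgeR exact test, DESeq2 and limma voom also called 0 members in each comparison. At an unadjusted p under 0.05, 0, 5 and 2 members were counted in these comparisons, against 13.8%, 27.1% and 8.84% of all genes. Since abundant genes are measured more precisely, the 38 members with a mean of at least 20 CPM were also set beside other genes at this level. Of these 38, 0, 0 and 0 were called after adjustment, against 1.28%, 12.7% and 0.0177%, and 0, 5 and 1 at an unadjusted p under 0.05, against 12.7%, 27.7% and 8.64%. The count of 0 between lactate and sham mice stands beside the largest share of all genes called, and the other comparisons had few calls to set it against.

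The constitutive subunits also stayed within narrow limits. The 95% interval of the fold change lay inside 1.5-fold in both directions for 27 of 31 constitutive subunits between vehicle and sham mice, for 30 of 31 between lactate and sham mice, and for 31 of 31 between lactate and vehicle mice. Without Vehicle mouse 1 these counts were 29 of 31 for vehicle against sham and 31 of 31 for lactate against vehicle. Among all genes tested with at least 20 CPM this share was 60.8%, 68.6% and 61.8%. The median size of the log2 fold change of the constitutive subunits was 0.09, 0.07 and 0.09. Of the inducible genes tested, 3 of 5, 3 of 4 and 3 of 4 had such an interval, those of Psmb10, Psme1 and Psme2. Psmb8 had none in any comparison and Psmb9 none in the comparison of vehicle with sham mice, the only one in which it reached the minimum level for testing (1 CPM or more in 4 or more of the 8 mice compared).

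**Figure D2:**
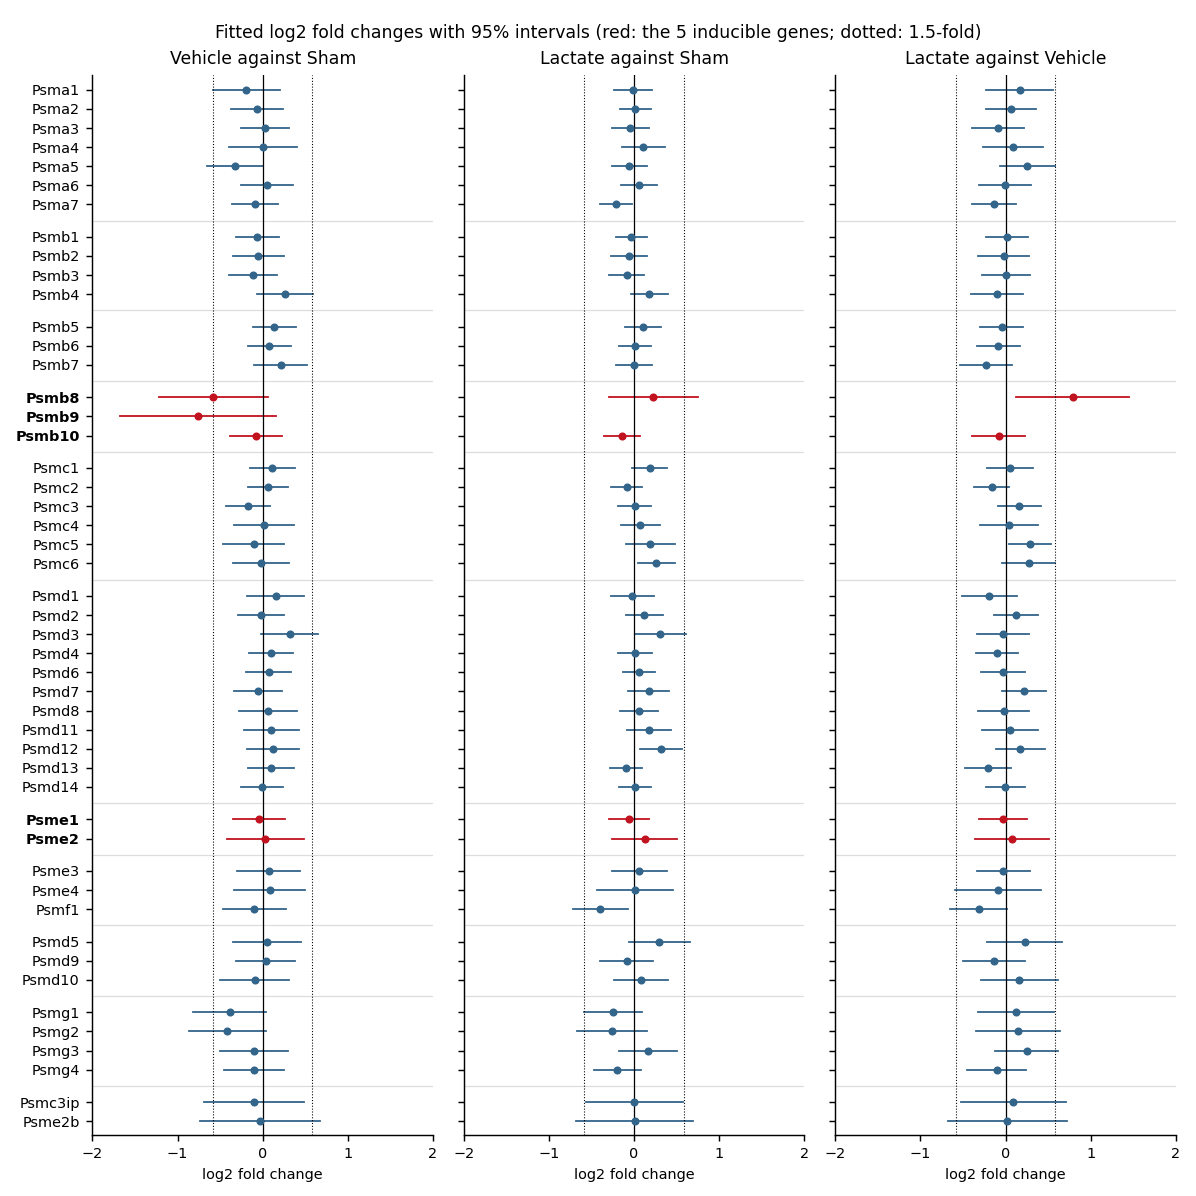
Fitted log2 fold changes (x axis) of the proteasome genes that were tested, with 95% intervals, in the 3 comparisons, in red for the 5 inducible genes. Dotted lines mark a fold change of 1.5. Most intervals cross 0 and stay between the dotted lines, and Psmb8 and Psmb9 have the widest intervals of the subunits.

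Among the members that passed the filter on low counts, Psmb8, the inducible counterpart of Psmb5, gave the largest difference between lactate and vehicle mice. Its level was 3.30, 4.01, 3.80 and 3.08 CPM in sham mice 1 to 4, 1.78, 3.50, 1.99 and 2.05 CPM in vehicle mice, and 2.84, 4.07, 4.48 and 4.87 CPM in lactate mice. Of the vehicle mice, 3 lay below every sham and lactate mouse, while Vehicle mouse 2 lay within the sham range and above Lactate mouse 1, so the groups overlapped. These levels rest on 14 to 42 counts per mouse. The fitted log2 fold change between lactate and vehicle mice was 0.79 (SE 0.31), a fold of 1.73 with a 95% interval of 1.09 to 2.74, with an unadjusted p of 0.024 and an adjusted p of 0.524 in edgeR. Psmb8 was the only member with an unadjusted p under 0.05 and a change of 1.5-fold or more, against 6.23% of all genes in this comparison, and 0 members met both in the comparisons with sham mice (against 9.52% for vehicle and 17.5% for lactate). It met both limits in 3 of the 8 fits that left out 1 mouse and not without Vehicle mouse 1, 3 or 4 or Lactate mouse 3 or 4. Without Vehicle mouse 1 its log2 fold change was 0.68 with an adjusted p of 0.493.

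Against sham mice Psmb8 went below in vehicle mice and above in lactate mice, without passing the test in either. The log2 fold change was -0.58 (SE 0.30, adjusted p = 0.417 in edgeR) for vehicle and 0.23 (SE 0.24, adjusted p = 0.598) for lactate. The value for lactate was 0.36 without Lactate mouse 1 and 0.14 without Lactate mouse 4. Both comparisons use the same sham mice. Without Vehicle mouse 1 the value for vehicle was -0.46 with an adjusted p of 0.460.

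Psmb9, the inducible counterpart of Psmb6, had another pattern. Its level was 2.11, 0.892, 2.72 and 1.48 CPM in sham mice, 1.12, 1.55, 0.622 and 0.734 CPM in vehicle mice, and 0.541, 0.719, 0.923 and 0.580 CPM in lactate mice. Sham mouse 2 was below Lactate mouse 3, and the other sham mice were above every lactate mouse. These levels rest on 8 to 20 counts in sham mice and on 4 to 7 counts in lactate mice, close to the floor of detection. The log2 fold change between vehicle and sham mice was -0.76 (SE 0.42, adjusted p = 0.465 in edgeR), and -0.50 without Sham mouse 3, which had the highest level. When the filter on low counts was dropped, Psmb9 could also be tested between lactate and sham mice, with a log2 fold change in edgeR of -1.36 (SE 0.43, unadjusted p = 0.0052, adjusted p = 0.0532), and between lactate and vehicle mice, with -0.60 (SE 0.48, adjusted p = 0.753). Psmb9 overlaps Tap1 on the other strand in the annotation, and Psmb8 overlaps Gm20496 in the same way. The use of strand in counting is not given in the sources used here, so reads of such partners cannot be told apart. Tap1 itself had 0.123 to 0.892 CPM in sham mice, 0.259 to 1.03 CPM in vehicle mice and 0.541 to 1.20 CPM in lactate mice, and it did not reach the minimum level for testing.

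Psmb10, the inducible counterpart of Psmb7, was well above the other inducible catalytic genes. It had 84.0, 77.7, 77.1 and 74.9 CPM in sham mice, 78.0, 85.0, 62.1 and 64.6 CPM in vehicle mice, and 70.2, 74.0, 68.2 and 66.6 CPM in lactate mice. All lactate mice lay below all sham mice, by a small margin, with a log2 fold change of -0.14 (SE 0.10, adjusted p = 0.399 in edgeR). Groups that do not overlap were seen for 19.1% of all genes in this comparison. The values against vehicle were -0.08 (SE 0.14) and, for vehicle against sham, also -0.08 (SE 0.14).

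Psme1 and Psme2 differed little between groups. Psme1 had 70.2, 58.5, 53.1 and 59.6 CPM in sham mice, 62.8, 58.9, 54.2 and 52.5 CPM in vehicle mice, and 54.2, 57.2, 58.7 and 56.6 CPM in lactate mice, and these groups overlapped. Psme2 had 8.57, 10.9, 8.28 and 10.4 CPM, 7.12, 10.1, 10.7 and 10.4 CPM, and 11.9, 9.34, 9.89 and 9.74 CPM in the same order. Log2 fold changes of both genes lay between -0.06 and 0.12 in the 3 comparisons, with adjusted p-values of 0.714 to 0.969 in edgeR. With Vehicle mouse 1 left out, Psme2 was at 0.16 (SE 0.19) for vehicle against sham and at -0.04 (SE 0.18) for lactate against vehicle. Psme1 overlaps Emc9 on the other strand, which had 51.1 to 74.7 CPM over the 12 mice. Psme2b, a retrogene copy of Psme2, was listed at 1.32 to 2.55 CPM, and counts could be split between both.

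**Figure D3:**
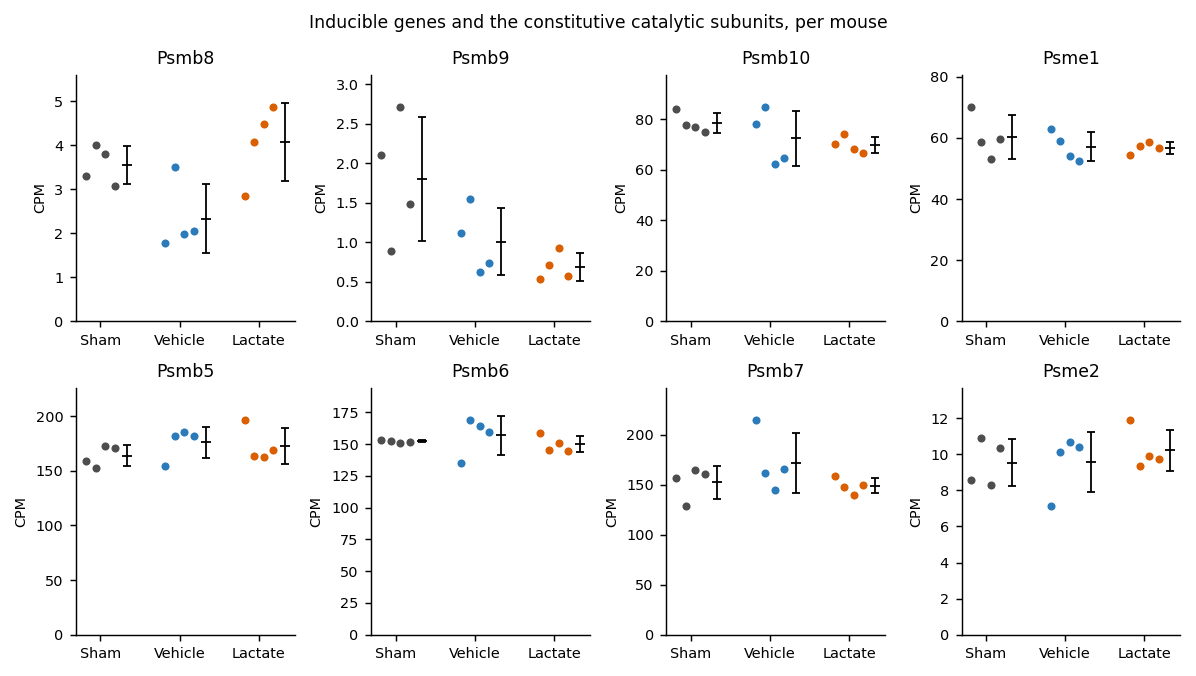
CPM per mouse (points) with the group mean and SD (bars, n = 4) for the 5 inducible genes and for Psmb5, Psmb6 and Psmb7, on linear axes that start at 0. For Psmb8, 3 vehicle mice lie below all other mice, and Psmb9 is low in all lactate mice. Every gene shown overlaps between vehicle and lactate mice.

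The constitutive counterparts gave no call either. Psmb5, the chymotrypsin-like subunit, had 159, 152, 173 and 170 CPM in sham mice, 155, 182, 185 and 182 CPM in vehicle mice, and 196, 163, 162 and 169 CPM in lactate mice. Psmb6, the caspase-like subunit, had 151 to 153 CPM in sham mice, 135 to 169 CPM in vehicle mice and 145 to 159 CPM in lactate mice. Psmb7, the trypsin-like subunit, had 129 to 165 CPM, 145 to 215 CPM and 140 to 159 CPM. Vehicle mouse 1 held the lowest vehicle value of Psmb5 and Psmb6 and the highest of Psmb7. Log2 fold changes of these 3 genes lay between -0.23 and 0.21, with adjusted p-values of at least 0.526 in edgeR. Both ends of this range belong to Psmb7 and rest on Vehicle mouse 1. Without it the values of Psmb7 were 0.08 (SE 0.12) for vehicle against sham and -0.09 (SE 0.10) for lactate against vehicle.

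Within a mouse, the inducible gene can be given as a share of the counts of its pair, which does not depend on the scaling of libraries. Psmb8 made up 2.13% ± 0.330 of the counts of Psmb8 and Psmb5 in sham mice, 1.30% ± 0.391 in vehicle mice and 2.34% ± 0.628 in lactate mice (SD, n = 4). The lowest share was 1.07% in Vehicle mouse 3 (95% exact Clopper-Pearson interval 0.610% to 1.72%) and the highest 2.81% in Lactate mouse 4 (2.03% to 3.77%). Psmb9 made up 1.17% ± 0.509 of its pair with Psmb6 in sham mice, 0.643% ± 0.265 in vehicle mice and 0.459% ± 0.117 in lactate mice. Psmb10 made up 34.0% ± 2.82, 29.7% ± 3.41 and 31.8% ± 1.36 of its pair with Psmb7. All 3 shares overlapped between all groups. These intervals hold only the counting error within a mouse. They can be too narrow even for that, because PCR copies could not be told from separate molecules. Transcript shares say nothing of assembled particles.

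**Figure D4:**
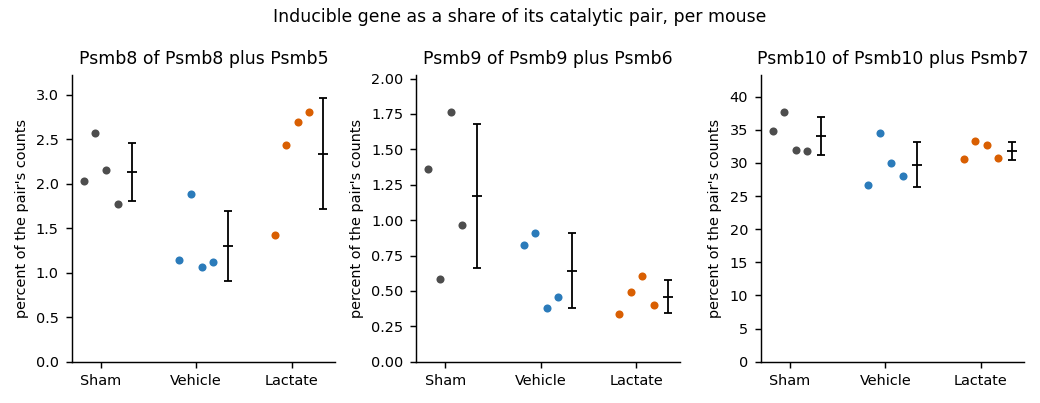
Counts of each inducible catalytic gene as a percentage of its pair's counts, per mouse (points) with the group mean and SD (bars, n = 4), on axes that start at 0. Psmb10 makes up 26.6% to 37.7% of its pair, whereas Psmb8 and Psmb9 stay under 3%.

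Among alpha-ring subunits, the differences with the largest size were those of Psma5 and Psma7. Psma5 had 214 to 256 CPM in sham mice, 134, 215, 176 and 205 CPM in vehicle mice, and 209 to 243 CPM in lactate mice. Its log2 fold change between vehicle and sham mice was -0.32 (SE 0.15, adjusted p = 0.367 in edgeR), and -0.20 (SE 0.11, adjusted p = 0.384) without Vehicle mouse 1, which had the 134 CPM. Psma7 had 253, 282, 257 and 272 CPM in sham mice, 208, 285, 242 and 241 CPM in vehicle mice, and 215, 225, 232 and 229 CPM in lactate mice. Every lactate mouse lay below every sham mouse, and the log2 fold change was -0.21 (SE 0.09, unadjusted p = 0.033, adjusted p = 0.144 in edgeR). An unadjusted p under 0.05 remained in 2 of the 8 fits that left out 1 mouse. Psma4 and Psma6 gave the highest values of the ring against sham, at 0.11 (SE 0.12) for Psma4 with lactate and 0.05 (SE 0.14) for Psma6 with vehicle. In fits that left out 1 mouse these values ran from 0.01 to 0.22 and from -0.07 to 0.10.

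The structural beta subunits do not cut proteins but hold the ring together. Psmb4, which ends the assembly of the ring, had 239, 192, 251 and 249 CPM in sham mice, 198, 304, 295 and 292 CPM in vehicle mice, and 268, 278, 252 and 234 CPM in lactate mice. Vehicle mouse 1 lay within the sham range, and the other vehicle mice lay above every sham mouse. The log2 fold change between vehicle and sham mice was 0.26 (SE 0.15, adjusted p = 0.483 in edgeR) with Vehicle mouse 1 and 0.39 (SE 0.11, unadjusted p = 0.0045, adjusted p = 0.102) without it, the smallest adjusted p of any member in any setting of this comparison. Between lactate and vehicle mice it was -0.10 (SE 0.14) with and -0.21 (SE 0.10, unadjusted p = 0.048, adjusted p = 0.480 in edgeR) without that mouse. Psmb1 and Psmb3 lay between -0.11 and 0.02 in the 3 comparisons.

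The 19S ATPases held 2 members with an unadjusted p under 0.05. Psmc6 had 112, 102, 91.1 and 113 CPM in sham mice, 75.4, 109, 105 and 113 CPM in vehicle mice, and 122, 130, 124 and 115 CPM in lactate mice. All lactate mice lay above all mice of both other groups. The log2 fold change was 0.26 (SE 0.10, unadjusted p = 0.023, adjusted p = 0.115 in edgeR) against sham and 0.27 (SE 0.14, adjusted p = 0.601) against vehicle, or 0.16 (SE 0.10) against vehicle without Vehicle mouse 1. An unadjusted p under 0.05 against sham was lost only without Sham mouse 3. Psmc5 had 802, 1324, 975.1 and 1107 CPM in sham mice, 884, 780, 1086 and 1080 CPM in vehicle mice, and 1189, 1212, 1130 and 1195 CPM in lactate mice. The lactate mice lay above all vehicle mice (log2 fold change 0.28, SE 0.11, unadjusted p = 0.027, adjusted p = 0.527 in edgeR) but within the range of sham mice. Psmc5 kept an unadjusted p under 0.05 in 4 of the 8 fits that left out 1 mouse, among them the fit without Vehicle mouse 1, where its value was 0.26. Psmc1 reached 0.18 (SE 0.10) with lactate against sham, Psmc2 was at -0.16 (SE 0.10) with lactate against vehicle, and Psmc3 was at -0.17 (SE 0.12) with vehicle against sham.

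The 19S non-ATPase subunits included Psmd12 and Psmd3, both scaffold subunits of the lid. Psmd12 had 69.9, 74.5, 82.0 and 87.8 CPM in sham mice, 69.7, 84.8, 89.6 and 90.8 CPM in vehicle mice, and 85.5, 105, 92.4 and 99.6 CPM in lactate mice. Its log2 fold change between lactate and sham mice was 0.31 (SE 0.11, unadjusted p = 0.016, adjusted p = 0.090 in edgeR), the smallest adjusted p of any member in this test. The groups overlapped, and an unadjusted p under 0.05 was lost only without Sham mouse 1. Psmd3 had 28.2, 34.9, 34.8 and 27.0 CPM in sham mice, 36.2, 37.7, 35.6 and 42.8 CPM in vehicle mice, and 38.9, 41.9, 33.2 and 37.2 CPM in lactate mice. Vehicle mice lay above all sham mice, with a log2 fold change of 0.32 (SE 0.15, adjusted p = 0.388 in edgeR), and the value for lactate was 0.31 (SE 0.14, unadjusted p = 0.046, adjusted p = 0.176). Psmd3 kept an unadjusted p under 0.05 with lactate in 3 of the 8 fits that left out 1 mouse. Its value for vehicle was, with Vehicle mouse 1 left out, 0.34 (SE 0.15, adjusted p = 0.270 in edgeR). Psmd7 and Psmd13 spanned the range of this group between lactate and vehicle mice, from -0.21 (SE 0.13) for Psmd13 to 0.21 (SE 0.12) for Psmd7. These values were, with Vehicle mouse 1 left out, -0.12 (SE 0.10) and 0.21 (SE 0.11).

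Counts of members whose groups did not overlap were below the share of all genes in the comparisons with sham mice and above it between lactate and vehicle mice. They were 2 of 48 between vehicle and sham mice (Psmc3 and Psmd3), against 9.03% of all genes, and 4 of 47 between lactate and sham mice (Psma7, Psmb10, Psmc6 and Psmg4), against 19.1%. Between lactate and vehicle mice they were 4 of 47 (Psmc2, Psmc5, Psmc6 and Psmd7), against 4.81%. Without Vehicle mouse 1, 5 of 48 members did not overlap between vehicle and sham mice, against 16.4% of all genes in the same fit, and 7 of 47 between lactate and vehicle mice, against 10%. In these fits 2 of 48 and 2 of 47 members had an unadjusted p under 0.05, against 17.3% and 10.3% of all genes.

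Psmf1, an inhibitor of the core known as PI31, had 39.7, 24.2, 29.6 and 30.2 CPM in sham mice, 28.0, 31.0, 23.9 and 29.5 CPM in vehicle mice, and 21.0, 24.2, 21.2 and 25.3 CPM in lactate mice. The log2 fold change between lactate and sham mice was -0.39 (SE 0.15, unadjusted p = 0.021, adjusted p = 0.108 in edgeR), with overlap of the groups at Sham mouse 2. An unadjusted p under 0.05 was lost without Sham mouse 1, which had the highest value, or without Lactate mouse 1 or 3. Psme3, the nuclear PA28 gamma cap, lay between -0.03 and 0.07 in the 3 comparisons, and Psme4, the PA200 cap, between -0.09 and 0.08.

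Assembly factors gave no call. Psmd5, Psmd9 and Psmd10, chaperones of the 19S base, lay between -0.14 and 0.29, the highest value being that of Psmd5 with lactate against sham (SE 0.17, adjusted p = 0.282 in edgeR), which was 0.15 without Lactate mouse 1. These 3 genes lay, with Vehicle mouse 1 left out, between -0.19 and 0.16 in the comparisons that use it. Psmg2, a chaperone of the alpha ring, had 17.7, 12.9, 15.1 and 19.4 CPM in sham mice, 8.34, 12.4, 13.9 and 12.9 CPM in vehicle mice, and 14.2, 9.58, 12.9 and 16.5 CPM in lactate mice. Its log2 fold change was -0.42 (SE 0.21, adjusted p = 0.403 in edgeR) for vehicle and -0.26 (SE 0.19, adjusted p = 0.418) for lactate against sham, the latter -0.12 without Lactate mouse 2 and -0.16 without Sham mouse 4. All 4 Psmg genes had values below 0 between vehicle and sham mice, with a median of -0.25, against a median of 0.003 over all genes tested in this comparison. This rests in part on Vehicle mouse 1. Without it the median of the 4 genes was -0.15, against -0.02 over all genes, with Psmg2 at -0.27 (SE 0.18) and Psmg4 at -0.01 (SE 0.14). Psmg3 and Psmg4 spanned the range between lactate and vehicle mice, at 0.25 (SE 0.17) and -0.10 (SE 0.16). Psmc3ip, a recombination factor, was at 1.80 to 2.70 CPM, with log2 fold changes between -0.10 and 0.09.

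Partners of the proteasome outside the symbol rule gave no call with this test either. Of 18 listed partners (receptors, deubiquitinases, shuttles and chaperones), 17 were tested and 0 were called in each comparison in edgeR's quasi-likelihood test, with 3, 3 and 0 at an unadjusted p under 0.05. The shares of all genes were 1.47%, 12.3% and 0.00574% called and 13.8%, 27.1% and 8.84% at an unadjusted p under 0.05. Between lactate and sham mice the edgeR exact test called 1, DESeq2 2 and limma voom 0 of them, and these tools called 0 in the other comparisons. Pomp, which matures the core, had 269 ± 22.2 CPM in sham mice, 216 ± 18.8 CPM in vehicle mice and 231 ± 16.2 CPM in lactate mice (SD, n = 4). Its log2 fold change was -0.28 (SE 0.12, adjusted p = 0.334 in edgeR) for vehicle and -0.19 (SE 0.10, adjusted p = 0.242) for lactate against sham. The value for vehicle was -0.22 (SE 0.11) without Vehicle mouse 1. Of 6 ubiquitin genes, 0 were called in each comparison, with 1, 1 and 0 at an unadjusted p under 0.05, to be read against the same shares, and the exact test, DESeq2 and limma voom each called 1 between vehicle and sham mice.

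Regulators of constitutive proteasome genes included genes that were higher in both ischemic groups than in sham mice. Nfe2l1, the factor that restores proteasome levels when activity is short, was at 355 ± 19.4, 335 ± 52.9 and 343 ± 29.5 CPM in sham, vehicle and lactate mice, with log2 fold changes between -0.05 and 0.01. Maff and Mafk, small Maf partners of such factors, were the 2 genes called of 9 tested for vehicle and of 8 tested for lactate against sham, where 1.47% and 12.3% of all genes were called by the quasi-likelihood test. In each of these comparisons the edgeR exact test called 3 genes of the list and DESeq2 and limma voom 2. Mafk rose from 6.09 ± 1.70 CPM in sham mice to 15.3 ± 3.98 CPM in vehicle mice (log2 fold change 1.37, SE 0.25, adjusted p = 0.015 in edgeR) and to 12.7 ± 1.05 CPM in lactate mice (1.10, SE 0.20, adjusted p = 0.0042). Maff rose from 1.03 ± 1.10 CPM to 6.70 ± 2.58 CPM (2.75, SE 0.59, adjusted p = 0.037 in edgeR) and 4.29 ± 1.37 CPM (2.10, SE 0.56, adjusted p = 0.027). Leaving out 1 mouse ended the call of Maff in 5 of 8 fits for vehicle, with Vehicle mouse 1 (adjusted p = 0.057 in edgeR without it) or 3 or Sham mouse 1, 2 or 4, and in 4 of 8 fits for lactate, with Sham mouse 2 or 4 or Lactate mouse 2 or 3. The call of Mafk ended in 3 of 8 fits for vehicle, with Sham mouse 2, 3 or 4, and in 0 of 8 for lactate.

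Some genes that work with the immunoproteasome were called between lactate and sham mice, the comparison in which 12.3% of all genes were called. Those called are 1 of 17 interferon regulators and 4 of 10 genes of peptide transport and loading. In the other comparisons, where 1.47% and 0.00574% of all genes were called, 0 of them were. Of 22 interferon regulators, 17 were tested, and 0, 1 and 0 were called in the comparisons of vehicle with sham, lactate with sham and lactate with vehicle, with 2, 3 and 2 at an unadjusted p under 0.05. The exact test, DESeq2 and limma voom called 0 in the first and last of these and 2, 1 and 1 in the other. Irf7, an interferon response factor, rose from 1.62 ± 0.784 CPM in sham mice to 5.11 ± 1.70 CPM in lactate mice, with 2.44 ± 1.66 CPM in vehicle mice (lactate against sham: log2 fold change 1.66, SE 0.37, adjusted p = 0.011 in edgeR). Irf1, the classical inducer of Psmb9, was at 3.63 ± 0.641, 2.99 ± 0.674 and 2.26 ± 0.616 CPM, with an adjusted p of 0.152 for lactate against sham. Ifng was at 0 in all ischemic mice, and Ifnb1 was at 0 in all mice.

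Of 11 genes of peptide transport and loading, 10 were tested and 0, 4 and 0 were called, with 3, 7 and 1 at an unadjusted p under 0.05. The exact test, DESeq2 and limma voom also called 0, 4 and 0. The summed level of the list was 474 to 533 CPM in sham mice, 589 to 647 CPM in vehicle mice and 709 to 845 CPM in lactate mice, so vehicle mice already lay above all sham mice. The median log2 fold change was 0.35 for vehicle and 0.53 for lactate against the same sham mice, and 0.25 for lactate against vehicle, beside medians over all genes of 0.003, -0.03 and -0.03. H2-D1, a class I heavy chain, rose from 60.6 ± 14.5 CPM in sham mice to 112 ± 7.89 CPM in lactate mice (0.92, SE 0.15, adjusted p = 0.0018 in edgeR), and H2-K1 from 23.5 ± 2.09 to 35.6 ± 6.60 CPM (0.63, SE 0.15, adjusted p = 0.015). In vehicle mice H2-D1 had 92.3 ± 19.3 CPM (0.65, SE 0.20, adjusted p = 0.164 in edgeR) and H2-K1 29.4 ± 3.76 CPM (0.36, SE 0.16, adjusted p = 0.336). Calr and Pdia3, chaperones of peptide loading and of protein folding in general, rose by 0.84 (SE 0.13, adjusted p = 0.0012 in edgeR) and 0.99 (SE 0.21, adjusted p = 0.0091) on the log2 scale with lactate, and had values of 0.47 (SE 0.20, adjusted p = 0.317) and 0.43 (SE 0.24, adjusted p = 0.453) with vehicle. Tap2, the transporter subunit encoded beside Psmb8, was at 2.17 ± 0.953, 2.81 ± 1.30 and 1.78 ± 0.285 CPM, with no call.

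Marker genes of cells that can carry inducible subunits also moved between groups. The summed level of 10 microglial markers was 358 to 406 CPM in sham mice, 316 to 393 CPM in vehicle mice and 490 to 546 CPM in lactate mice. Against sham, 1 of them was higher (C1qb) and 2 lower (Cx3cr1 and P2ry12) in vehicle mice, and 3 were higher (C1qa, C1qb and Fcrls) and 1 lower (P2ry12) in lactate mice, where 1.47% and 12.3% of all genes were called. Leaving out 1 mouse ended the vehicle calls of C1qb in 7, of Cx3cr1 in 5 and of P2ry12 in 6 of 8 fits, and the lactate calls in 0 of 8. The summed level of 10 markers of neutrophils and monocytes was 6.8 to 9.5 CPM in sham mice, 16.3 to 82.8 CPM in vehicle mice and 30.2 to 54.6 CPM in lactate mice. Of these 10, 4 were tested against sham. A marker could pass the filter (1 CPM or more in 4 of the 8 mice) through its high group alone, so calls among them are not a test of the list. Those called were 2 higher in vehicle mice (S100a8 and S100a9) and 3 higher in lactate mice (these and Lyz2). The lymphocyte markers Cd3e, Ms4a1 and Ncr1 were at 0 in every mouse. The summed level of 11 lymphocyte markers was 1.98 to 4.19 CPM in sham mice and 1.30 to 3.11 CPM in vehicle mice. In lactate mice this sum was 1.68 to 6.38 CPM, which overlaps both other groups. Only 1 of the 11 could be tested in each comparison, and 0 were called. The tested marker stood higher in lactate mice, by 1.06 (sham) and 1.18 (vehicle) on the log2 scale, each at an unadjusted p under 0.05 in edgeR. Vehicle mice stood at -0.14 from sham mice, without such a p. The summed level of 7 endothelial markers was 154 to 161 CPM, 136 to 187 CPM and 174 to 222 CPM, with 0 of 7 called in vehicle mice and 1 higher (Ly6c1) and 1 lower (Slco1a4) in lactate mice by the quasi-likelihood test. In vehicle mice 5 of the 7 had an unadjusted p under 0.05, and the edgeR exact test called 2, DESeq2 1 and limma voom 1. Of 6 astrocyte markers 1, Gfap, was higher in vehicle and in lactate mice, and of 6 oligodendrocyte markers 0 were called in vehicle mice and 2 were lower in lactate mice (Cnp and Mog). None of 7 neuronal markers was called. The vehicle calls of S100a9 and Gfap each ended in 3 of 8 fits that left out 1 mouse, and between lactate and vehicle mice 0 markers of any list were called by the quasi-likelihood test of edgeR. In that comparison 4 microglial markers had an unadjusted p under 0.05, and the edgeR exact test and DESeq2 each called 2 of them and limma voom 0. The part of these cells in the values of Psmb8, Psmb9, Irf7 and the class I genes was not tested.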

How the data were processed

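Brain RNA of 12 mice was read as full-length cDNA on a nanopore PromethION after a PCR kit (SQK-PCS109). The authors filtered reads on mean quality and length, removed ribosomal reads, aligned them with minimap2 (GRCm38 in the submitters' processing notes), collapsed them with pinfish and deposited raw counts per gene. The deposited CPM values of the authors are these counts scaled to each library total. How reads were counted per gene, and with which strand, is not given in the sources used here. The labels name DESeq 1.10.1. Columns with the authors' own fold changes and p-values were not used, and 4 lines that name no gene were dropped. The labels do not say whether mice shared litters, so p-values measure the spread between these mice.

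For each comparison the 8 mice of 2 groups were fitted in edgeR 4.0.16 (R 4.3.3; TMM scaling, quasi-likelihood test) with genes at 1 CPM or more in 4 or more mice. Standard errors were derived from the test statistic. Alternatives were other scalings, filters, DESeq2 1.42.0, limma 3.58.1, the edgeR exact test, a replicate block and leaving out each mouse. The fits were tested on simulated data. Named members are the inducible genes, their counterparts, the highest and lowest fold change of each role and comparison, and members never tested. Genes of the partner, ubiquitin, regulator and peptide lists are named when called by the quasi-likelihood test, with Pomp, Irf1 and Nfe2l1 always. Marker lists are given by sums, calls or both, and the markers and other genes named were chosen after their values were seen. Members and lists were chosen with earlier results of these data known. A listed gene is not reported here.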

Additional observations from a re-analysis of the deposited data

Results flagged for a closer look

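Of 144 groups of 4 mice (members by group), 10 held a value far from the other 3 mice by Dixon's test, where chance gives about 1 in 20. Of these, 4 were in Vehicle mouse 1, which had 198 CPM of Psmb4, 155 CPM of Psmb5, 73.5 CPM of Psmc4 and 7.12 CPM of Psme2, each below the other vehicle mice. Psmb8 stood apart in Vehicle mouse 2, with 3.50 CPM, above the other vehicle mice. Psma2 stood apart in Sham mouse 4 (258 CPM) and in Lactate mouse 1 (249 CPM). Psma6 (125 CPM) and Psmd6 (169 CPM) stood apart in Vehicle mouse 4, and Psmd4 in Lactate mouse 2 (210.2 CPM).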

How the results depend on the processing

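The count of 0 proteasome genes called after adjustment held in all 3 comparisons under each of 18 alternatives. Without adjustment, a count chosen after seeing the data, 3 members were higher and 2 lower between lactate and sham mice, and 2 were higher between lactate and vehicle mice. With an unadjusted p under 0.05 and a change of 1.5-fold or more, 1 was higher between lactate and vehicle mice. The study's methods name such a fold and p but leave unclear whether this p is the adjusted one, and with an adjusted p 0 members met both. Leaving out each mouse gave 0 to 0 members called. The smallest adjusted p of any member in any setting was 0.102 between vehicle and sham mice (Psmb4, without Vehicle mouse 1), 0.0532 between lactate and sham mice (Psmb9, no filter on low counts) and 0.309 between lactate and vehicle mice (Psmb8, edgeR exact test). Calls among all genes depended more on the setting, at 250 (114 to 600), 2124 (1003 to 3082) and 1 (0 to 85) in edgeR and the alternatives. Signs of named members, none of them called, turned in 32 of 630, 41 of 612 and 38 of 612 values. Deviations from the group means correlated between same-numbered mice at -0.148 to 0.158. The labels do not say what the numbers stand for, and such correlations cannot show whether these mice shared a batch. With the replicate block 0 members were called, and Psmb8 had a log2 fold change of 0.79 between lactate and vehicle mice (adjusted p = 0.694 in edgeR). Low counts limit Psmb8, Psmb9, Psma8 and Psmb11.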
